A study of Mus musculus with 10 samples.

Results

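Mouse T cell acute lymphoblastic leukemias (T-ALL) that carried the labels 204 and 206 were compared with those that carried the label F3, F3.1 or F3.2, across all genes measured. The members were all 10 arrays of the series, split by the label in the sample descriptions. The 204/206 group held 4 arrays (OIL 204, OIL 206, TAM 204 and TAM 206). The F3 group held 6 (OIL F3, OIL F3.1-1, OIL F3.2-3, TAM F3, TAM F3.1-4 and TAM F3.2-10). The title of TAM F3 carries no label, and its description, which names F3, was used. The difference was taken with treatment as a covariate, and the effect of treatment itself was not examined. Of 18193 named genes, 12735 passed a filter on dim values and were tested.

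ICN1, an active intracellular NOTCH1, had started all 10 leukemias, and all carried the ROSCreERT2 transgene and 2 floxed copies of CnB1, whose current symbol is Ppp3r1 and which encodes the regulatory B subunit of calcineurin. ROSCreERT2 is a Cre recombinase that acts once tamoxifen is given. Secondary recipient mice that had become leukemic received corn oil (OIL, CnB1 kept) or tamoxifen (TAM, CnB1 deleted). Leukemic cells, over 50% of the marrow, were sorted from it by GFP or a like marker, and 200 ng of RNA went onto each array. The labels do not say whether F3, F3.1 and F3.2 are separate leukemias or passages of 1, or whether each array came from its own mouse. The p-values below therefore measure only the spread between these samples, which may be in part technical, and label and leukemia cannot be told apart.

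T-ALL arises from thymocytes, and NOTCH1 activation drives the T lineage programme and growth through direct targets such as Myc, Hes1 and Dtx1. Leukemias started by the same NOTCH1 allele are known to differ from each other, since each grows from few cells that can differ in stage of arrest, T cell receptor rearrangement and further mutations. Desmosomes, cadherin-based junctions of epithelia, are not a normal feature of thymocytes. Dsp, Dsc3 and Ctnna1, genes of desmosomes or cadherin junctions, are described first because they are among the genes that separated the groups.

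Of both probe sets of the targeted gene, the dim one separated the treatments. This dim Ppp3r1 probe set read 5.04, 4.49, 5.54, 5.51 and 6.04 log2 units in OIL 204, OIL 206, OIL F3.1-1, OIL F3.2-3 and OIL F3, and 3.18, 3.3, 3.02, 3.59 and 3.21 in the TAM arrays of 204, 206, F3.1-4, F3.2-10 and F3. The difference of 204/206 from F3 in this probe set was -0.48 (two-sided exact permutation over 10 arrays, p = 0.533), and that of a brighter Ppp3r1 probe set, which overlapped between treatments at 9.71 to 9.91 in OIL and 9.63 to 9.72 in TAM, was 0.03 (exact permutation p = 0.633). The labelled cell type was borne out by its markers. All 16 genes of a list of CD3 chains, coreceptors and costimulators lay above the dim limit of 4.59 in every array, and their summed level was 14.59 to 14.88 log2 units in 204/206 and 14.6 to 14.87 in F3.

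Of 8 marker lists, the CD3 list included, 2 had an unadjusted p under 0.05 between the label groups and 0 an adjusted one, where the smallest p that 4 against 6 arrays allow is 0.00476 and arrays of 1 label are not independent. The summed level of 20 myeloid and granulocyte markers was 9.25 to 9.92 in the 204/206 arrays and 9.72 to 11.87 in the F3 arrays (difference -1, exact permutation p = 0.0429, adjusted over the 8 lists 0.172). Of these markers, 13 to 17 lay above the dim limit in 204/206 and 16 to 20 in F3; S100a8, a granulocyte alarmin, read 5.06 to 7.39 in 204/206 and 6.69 to 10.07 in F3, while the granulocyte proteases and peroxidase were near the limit, with Elane at 4.62 to 4.89 and Mpo at 4.09 to 5.19 over all arrays. The summed level of 10 dendritic cell markers was 10.26 to 11.05 in 204/206 and 11.2 to 12.17 in F3 (difference -0.97, exact permutation p = 0.00952, adjusted 0.0762), with Siglech and Itgax at 4.27 to 4.74 and 4.34 to 4.74. The 6 genes of this list that were tested had a median difference of 0.04, 3 of them above 0. Ly6d, at 11.97 in TAM F3.2-10 where the list summed to 12.17, read 7.56 to 9.96 against 10.68 to 11.97, and Tcf4, at 8.85 to 9.38 against 7.51 to 8.24, went the other way. Bst2 differed by 0.79 ± 0.28 (SE, limma adjusted p 0.132). In bulk samples fewer cells of a type and less RNA per cell cannot be told apart, and the part of these markers in the results below was not tested.

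A total of 835 genes (6.56%) differed between the label groups at an adjusted p under 0.05 (limma with the label as a random block, Benjamini-Hochberg over 12735 genes). Of these, 467 (3.67%) were higher in 204/206 and 368 (2.89%) lower. The called differences exceeded 1 log2 unit for 132 genes (1.04%) that were higher and 122 (0.958%) that were lower, and exceeded 3 log2 units for 14 (0.11%) and 16 (0.126%). The 4 arrays of 204/206 all lay above or all below the 6 arrays of F3 for 1463 genes (11.5%; above for 6.92%, below for 4.57%), of which 697 (5.47% of all tested) were called. The count depended on the arrays: it was 401 without OIL F3.2-3, 442 without TAM 204, 446 without OIL 204, 481 without OIL F3.1-1, 501 without TAM 206 and 1472 without OIL F3. The comparison rests on 2 against 3 labels. With OIL and TAM averaged within each label 331 genes (2.6%) were called, 305 of them among the 835.

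Dsp, Dsc3 and Ctnna1, genes of desmosomes or cadherin junctions, were among those that separated the groups, in both directions. They were picked from the leading genes, and the share of junction genes called was not counted. The desmosomal cadherin Dsc2, described below, was not called between the groups (difference -1.95, limma adjusted p 0.539). Desmoplakin (Dsp), which ties desmosomal cadherins to intermediate filaments, read 4.47 in OIL 204, 3.42 in OIL 206, 4.72 in TAM 204 and 3.21 in TAM 206, against 10.85 to 11.55 in the 6 F3 arrays (median 11.22). No array of one group came near the other: the mean was 3.95 ± 0.75 (SD, n = 4) in 204/206 and 11.23 ± 0.32 (SD, n = 6) in F3, a difference of -7.27 ± 0.31 (SE) with an adjusted p of 3.99e-06 by limma. Of the 4 Dsp values in 204/206, all but the 4.72 of TAM 204 lay below the dim limit of 4.59, so the size of the difference is not well measured, and the same holds for every gene below that limit in one group, Dsc3, Ddx43 and Matn2 among them. A separate, equally bright probe set gave a difference of -8.06, and a dim one -0.85. Desmocollin 3 (Dsc3), a desmosomal cadherin, was the opposite case: it read 5.15, 8.89, 6.37 and 8.98 in OIL 204, OIL 206, TAM 204 and TAM 206, and 2.78 to 3 in the F3 arrays (median 2.83). All 4 of its 204/206 values lay above F3, by more in 206 than in 204 (difference 4.50 ± 0.69 SE, adjusted p 0.0056, though 0.0617 with label means). Its second, dim probe set differed by 0.34. The filter took the mean over all arrays, which for Dsc3 was 4.65 against the limit of 4.59. Dsc3 passed only through the 204/206 arrays, where it is high, so its place among the genes tested is no separate result. Alpha-catenin (Ctnna1), which links cadherins to actin, read 10.2, 8.8, 10.22 and 9.16 in the same 4 arrays and 6.4 to 6.93 in F3 (median 6.72). The groups were apart, and Ctnna1 was higher by 2.88 ± 0.28 (SE), adjusted p 0.000411. One of its 4 probe sets differed by -0.04.

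The promoter letters of 3 of these leading genes are shown because the genes separated the label groups without overlap and differ in CpG content: Ddx43 was below the dim limit in all 204/206 arrays and Dsp in all but TAM 204, and Lgals7 was lower in F3. They are from RefSeq on GRCm38.p6, run from 250 bases before to 50 bases after the start on the gene's strand, 300 bases in all, and carry each CG in capitals.
Dsp (chr13:38151044-38151343, plus strand, 27 CG): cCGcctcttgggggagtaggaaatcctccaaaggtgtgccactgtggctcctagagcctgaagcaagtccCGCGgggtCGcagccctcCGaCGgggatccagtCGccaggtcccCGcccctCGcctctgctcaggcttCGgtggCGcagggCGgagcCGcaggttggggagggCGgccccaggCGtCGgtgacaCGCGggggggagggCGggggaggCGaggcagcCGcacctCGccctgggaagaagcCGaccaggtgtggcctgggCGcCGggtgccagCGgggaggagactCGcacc
Ddx43 (chr9:78395527-78395826, plus strand, 30 CG): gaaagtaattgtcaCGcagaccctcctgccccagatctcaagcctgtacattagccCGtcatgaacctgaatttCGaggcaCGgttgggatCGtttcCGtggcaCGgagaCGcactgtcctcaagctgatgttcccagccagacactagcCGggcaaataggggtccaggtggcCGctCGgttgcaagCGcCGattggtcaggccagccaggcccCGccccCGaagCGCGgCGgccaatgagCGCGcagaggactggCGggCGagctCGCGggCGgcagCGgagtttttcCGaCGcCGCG
Lgals7 (chr7:28864136-28864435, plus strand, 5 CG): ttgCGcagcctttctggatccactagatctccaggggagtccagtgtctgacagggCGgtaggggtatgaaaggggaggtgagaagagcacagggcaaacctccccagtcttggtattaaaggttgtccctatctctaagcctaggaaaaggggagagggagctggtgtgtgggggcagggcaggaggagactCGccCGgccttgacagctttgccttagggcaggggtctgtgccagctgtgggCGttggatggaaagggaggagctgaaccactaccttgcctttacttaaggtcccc
A single such window was listed for 8236 of the 12735 genes tested, for 79 of the 132 genes higher by over 1 log2 unit and for 68 of the 122 lower. The median CG count was 20 over all of them, 17 for the higher genes and 18 for the lower. At least 10 CG were held by 79.1% of all windows, 65.8% of the higher and 72.1% of the lower genes' windows. The RUNX letters TGTGGT on either strand were in 12.7% of all windows, 5.06% of the higher and 14.7% of the lower genes' windows. The E-box letters CAGCTG were in 15.3%, 20.3% and 16.2%, and the RBPJ letters TGGGAA, on either strand, in 23.2%, 29.1% and 22.1%. Matches of different motifs can share end letters, and a match is a description of letters only.

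Other genes that were low or near the dim limit in all 204/206 arrays and well expressed in F3 were spread over functions. Ddx43, a DEAD-box RNA helicase known from germ cells and tumours, read 3.22, 2.94, 3.15 and 2.9 in OIL 204, OIL 206, TAM 204 and TAM 206 and 7 to 8.17 in F3 (median 7.99). Its 204/206 values were all below the dim limit, and the difference was -4.80 ± 0.21 (SE), adjusted p 3.99e-06. Clvs1, a lipid-binding protein of clathrin-coated vesicles, read 4.34, 2.69, 5.52 and 2.87 against 8.63 to 9.35 (median 9.07). The difference was -5.17 ± 0.51 (SE, adjusted p 0.000424), with both 204 arrays above both 206 arrays. Bst1 (CD157), an ectoenzyme of marrow stroma and lymphoid progenitors, read 4.8, 4.55, 5.19 and 4.32 against 8.17 to 10.16 (median 9.01), a difference of -4.42 ± 0.41 (SE, adjusted p 0.000292) without overlap.

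Dlx1, Mt1 and Asns were also lower in 204/206. The homeobox factor Dlx1 read 4.07, 4.06, 3.72 and 3.78 in OIL 204, OIL 206, TAM 204 and TAM 206 and 6.41 to 7.8 in F3 (median 7.51), a difference of -3.48 ± 0.26 (SE, adjusted p 5.29e-05). Metallothionein 1 (Mt1), which binds zinc, read 4.58, 5.27, 5.26 and 4.88 against 8.03 to 8.91 (median 8.37), a difference of -3.45 ± 0.26 (SE, adjusted p 6.35e-05). A second, dimmer Mt1 probe set, of mean 5.26, differed by only -0.15. Asparagine synthetase (Asns), the enzyme that makes asparagine and a known determinant of the response of lymphoblasts to asparaginase, read 5.7, 4.44, 4.98 and 5.2 against 7.32 to 9.62 (median 8.02). All 4 values of Asns lay below all 6 of F3, and the difference was -3 ± 0.43 (SE, adjusted p 0.00397). The other lower genes of the leading 15 were Trgv4, S100a10, Glipr1, Fbln2, Cyp39a1, Tifa, Wif1 and Runx3, with differences from -4.84 to -2.61.

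For Wif1 and Cd44, TAM F3.1-4 was the lowest F3 array. Wif1, a secreted inhibitor of Wnt ligands, read 2.27, 2.35, 1.87 and 2.27 in the 4 arrays of 204/206 and 3.99 to 8.3 in F3 (median 7.75). TAM F3.1-4, at 3.99, was nearest to the 204/206 values, the groups did not overlap, and the difference was -4.84 ± 0.77 (SE, adjusted p 0.0067). Cd44, an adhesion receptor and NOTCH-responsive marker of early thymocytes, read 4.15, 4.48, 3.94 and 3.85 in 204/206 and 4.14 to 8.1 in F3 (median 7.5). TAM F3.1-4, at 4.14, overlapped the 204/206 arrays. The Cd44 difference was -2.80 ± 0.64 (SE, adjusted p 0.0302), and the call was lost without TAM 204, TAM 206, TAM F3.2-10, OIL 204, OIL 206, OIL F3.2-3 or OIL F3.1-1 (adjusted p from 0.0585 to 0.103).

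**Figure D1:**
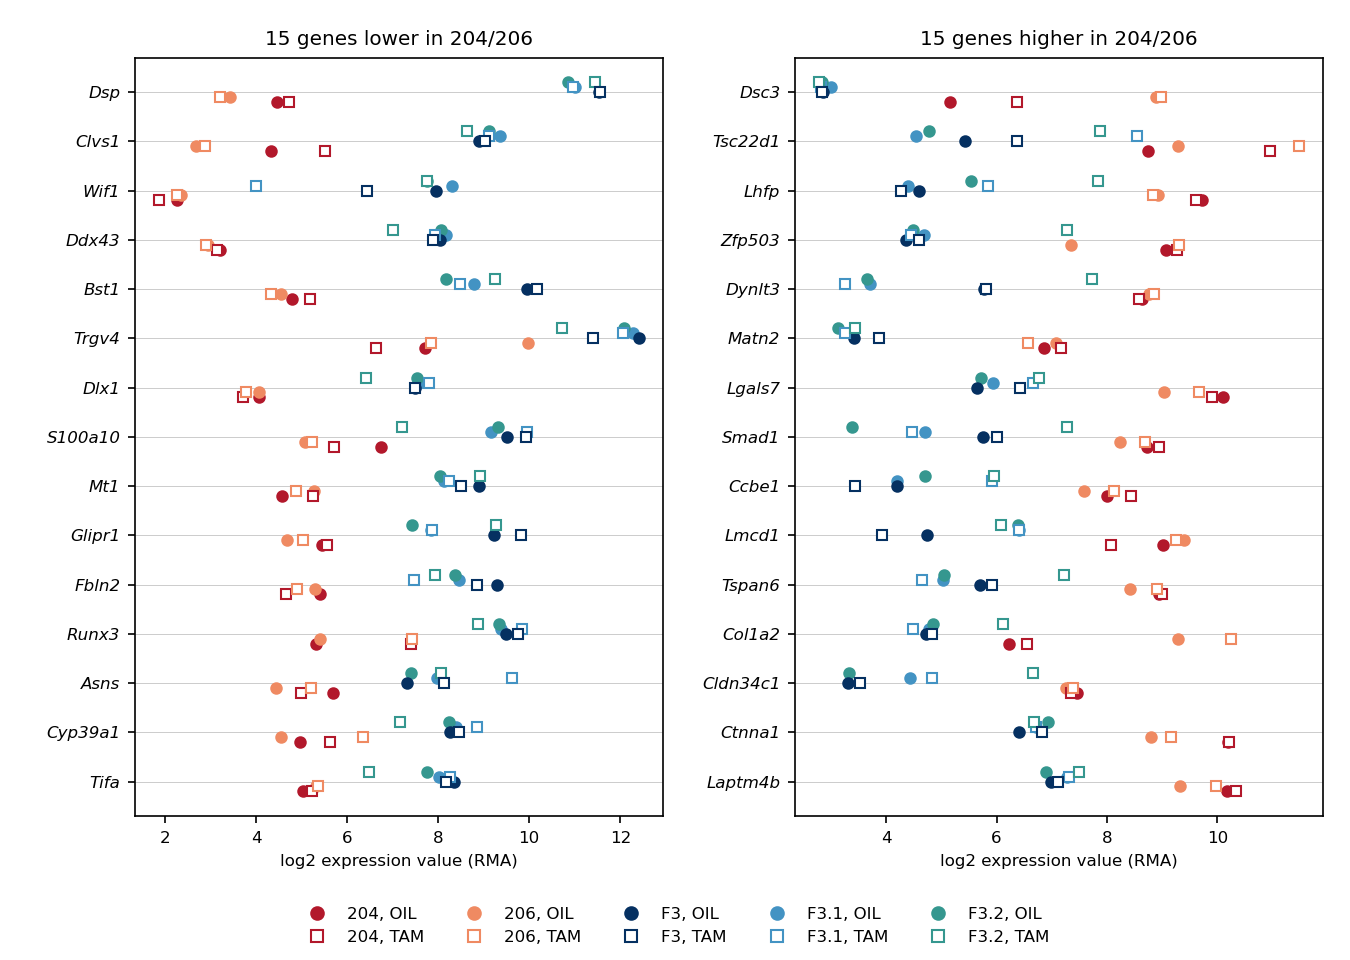
Log2 expression value of each of the 10 arrays for the 15 called genes furthest below F3 and the 15 furthest above F3 in 204/206 whose arrays do not overlap. Colours give the label, filled circles OIL and open squares TAM. For Dsp the 4 points of 204/206 lie at 3.21 to 4.72 and the 6 of F3 at 10.85 to 11.55, and in 18 of the 30 genes the F3 array nearest to 204/206 is TAM F3.2-10.

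Matn2, like Dsc3, was higher in 204/206 and below the dim limit in F3. It passed the filter, at a mean of 4.81, only through the 204/206 arrays. Matrilin 2 (Matn2), an extracellular matrix protein, read 6.86, 7.08, 7.16 and 6.57 in OIL 204, OIL 206, TAM 204 and TAM 206, and 3.12 to 3.86 in F3 (median 3.4). All F3 values were below the dim limit and the groups stood apart (difference 3.51 ± 0.19 SE, adjusted p 1.14e-05). Galectin 7 (Lgals7), a lectin of stratified epithelia, read 10.11, 9.04, 9.91 and 9.66 against 5.65 to 6.76 (median 6.17), a difference of 3.49 ± 0.24 (SE, adjusted p 3.35e-05). Laptm4b, a lysosomal membrane protein, read 10.18, 9.32, 10.33 and 9.98 against 6.89 to 7.49 (median 7.19), and was higher by 2.78 ± 0.18 (SE, adjusted p 2.94e-05).

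In the TGF-beta and BMP branch, Tsc22d1, a TGF-beta-stimulated leucine zipper protein, read 8.74 and 9.29 in OIL 204 and OIL 206, 10.95 and 11.48 in TAM 204 and TAM 206, and 4.53 to 8.54 in F3 (median 5.89). The 204/206 arrays lay above F3, narrowly so for OIL 204 against TAM F3.1-4 (3.86 ± 0.48 SE, adjusted p 0.00164). Other Tsc22d1 probe sets differed by 4.24, 3.69, 0.59, 0.15, -0.05 and -0.62. The probe set at 0.59, of mean 6.34, overlapped between the groups. Smad1, the transcription factor that BMP receptors phosphorylate, read 8.72, 8.23, 8.94 and 8.69 against 3.38 to 7.27 (median 5.22). Smad1 was higher by 3.38 ± 0.70 (SE, adjusted p 0.0202), and the call was lost without OIL 204 (0.0712) or TAM 204 (0.0559). Tsc22d1 and Smad1 are not on the list of Wnt, TGF-beta and hedgehog genes. Of 29 genes tested on that list, 3 were higher and 2 lower (17.2% in all, beside 6.56% of all genes). The list's median difference was -0.04, and the counts were 2 to 3 and 0 to 4 when each array was left out. The lower genes were Smad3 (-0.65, limma adjusted p 0.0316) and Ski (-0.35, adjusted p 0.0457). The Smad3 call was lost without any of 5 single arrays and the Ski call without any of 8. Lrp5 and Tgfbr1 were higher. The Wnt receptor Fzd7, at 5.77 to 6.41 against 4.76 to 5.23, was among the higher (1.15 ± 0.15 SE, limma adjusted p 0.00199). A second Fzd7 probe set, nearly as bright, differed by only 0.05 and overlapped between the groups.

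The other leading higher genes were Lhfp, Zfp503, Dynlt3, Ccbe1, Lmcd1, Tspan6, Col1a2 and Cldn34c1, by 3.02 to 3.86 log2 units. The calls of Dynlt3, Col1a2 and Cldn34c1 depended on single arrays. The Dynlt3 call was lost without any single 204/206 array, OIL F3.2-3 or OIL F3.1-1 (adjusted p 0.0775 to 0.106). The Col1a2 call was lost without TAM 206, TAM F3, TAM F3.1-4, OIL 206, OIL F3.2-3 or OIL F3.1-1 (0.053 to 0.0885), and that of Cldn34c1 without OIL 204, OIL 206 or OIL F3.2-3 (0.0584 to 0.0762). Of the 30 leading genes, 22 had more than 1 probe set, and in 18 of those all probe sets differed in the same direction. The sizes could be far apart, as with -3.05 and -0.38 for Runx3.

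The group difference was present with calcineurin intact and after its deletion. In the 5 OIL arrays alone, 298 genes (2.34%) were called, 141 higher (1.11%) and 157 lower (1.23%). In the 5 TAM arrays, which share no array with them, 87 (0.683%) were called. The TAM arrays carry the same labels as the OIL arrays and are not independent of them, so agreement between treatments is no replication in other leukemias. The 30 leading genes were picked because their groups did not overlap over all arrays, which fixes the same sign in OIL and TAM arrays in advance. Of them, 26 were called in OIL arrays alone and 11 in TAM arrays alone, arrays that also served to pick them. The interaction of group and treatment was called for 0 genes by limma, with 714 (5.61%) at an unadjusted p under 0.05, which does not show that the differences were equal. Leaving out OIL F3 gave 819 calls in OIL arrays, leaving out OIL F3.2-3 116 and leaving out OIL F3.1-1 77. The TAM count was 40 without TAM 204, 56 without TAM 206 and 22 without TAM F3.

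Of the 298 genes called in OIL arrays, 294 had the same sign in the TAM arrays, 258 did not overlap there in the same direction (34.9% of all genes tested did not overlap in TAM arrays in either direction), and 62 were called. Those 62 were 20.8% of the OIL calls and 71.3% of the TAM calls. The median size was 1.25 log2 units in OIL and 1.1 in the OIL direction in TAM, whose arrays carry the same labels. Each TAM array was placed for these genes on a scale from 0, the F3 OIL mean, to 1, the 204/206 OIL mean. The median position was 1.01 for TAM 204, 0.96 for TAM 206, 0.02 for TAM F3, 0.12 for TAM F3.1-4 and 0.24 for TAM F3.2-10. TAM F3.2-10 had 29.2% of the genes past the middle of the scale, TAM F3.1-4 22.8% and TAM F3 8.72%.

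**Figure D2:**
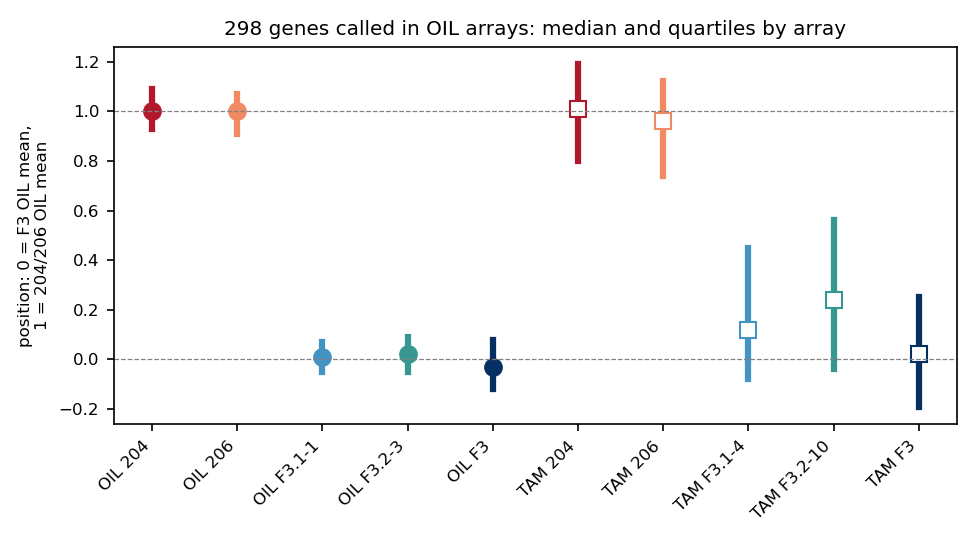
Position of each array on a scale where 0 is the mean of the 3 F3 OIL arrays and 1 the mean of the 2 204/206 OIL arrays, over the 298 genes called in OIL arrays; points are medians and bars run from the lower to the upper quartile. The OIL arrays define the scale, so only the TAM arrays are measurements: TAM 204 and TAM 206 have medians of 1.01 and 0.96, and the F3 TAM arrays of 0.02 to 0.24. The TAM arrays carry the same labels as the OIL arrays and are not independent of them.

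The RNA of a calcineurin catalytic chain differed between the groups. Calcineurin protein and activity were not measured. Ppp3ca, which encodes the A alpha catalytic chain, read 5.77, 5.44, 6.03 and 5.78 in OIL 204, OIL 206, TAM 204 and TAM 206, against 7.54 to 8.34 in F3 (median 8.23). All 4 arrays of 204/206 lay below all 6 of F3, whichever the treatment, and the difference was -2.35 ± 0.21 (SE, adjusted p 0.000224), or 5.1-fold. The other probe sets of Ppp3ca differed in the same direction, by up to -3.01. Rcan1, a feedback inhibitor and target of calcineurin, read 7.03, 7.24, 6.73 and 6.86 against 5.84 to 6.56 (median 6.4), higher by 0.63 ± 0.14 (SE, adjusted p 0.0282). The Rcan1 call was lost without any single 204/206 array, OIL F3.2-3 or OIL F3.1-1 (0.0549 to 0.0865). Ppp3ca and Rcan1 were the 2 genes called of 14 tested (14.3%, beside 6.56% of all genes) on the calcineurin and NFAT list, whose median was -0.08.

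T lineage transcription factors differed in 5 of 27 tested genes (18.5%, beside 6.56% of all genes), 2 higher and 3 lower, or 1 to 3 and 2 to 3 when each array was left out (median -0.04, all genes 0). Runx3, which silences Cd4 and promotes the CD8 fate, read 5.32 and 5.4 in OIL 204 and OIL 206, 7.41 and 7.43 in TAM 204 and TAM 206, and 8.87 to 9.83 in F3 (median 9.44). The groups were apart in both treatments, with differences of -4.04 in OIL and -2.06 in TAM, and the joint difference was -3.05 ± 0.46 (SE, adjusted p 0.00515). A second Runx3 probe set, dimmer but above the dim limit, differed by only -0.38 and overlapped between the groups (5.65 to 5.84 against 5.83 to 6.56). Runx1, the family member that is needed throughout thymocyte development, read 10.12, 9.62, 9.87 and 10.19 against 8.46 to 9.6 (median 9). It was higher by 0.93 ± 0.21 (SE, adjusted p 0.0291), a call lost without OIL 204, OIL F3.1-1, OIL F3.2-3, TAM 206 or TAM F3.2-10 (0.0649 to 0.085). The E protein Tcf4 was higher by 1.23 ± 0.19 (SE, adjusted p 0.00588), at 8.85 to 9.38 against 7.51 to 8.24. Foxo1 was lower, with a difference of -0.66 ± 0.11 (SE, adjusted p 0.00848), at 7.95 to 8.71 against 8.49 to 9.55, with overlap between arrays.

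Among T cell receptor segments, 2 of 9 tested were lower (22.2%, beside 2.89% of all genes) and 0 higher, and their median was -0.51. Trgv4, a variable segment of the gamma chain, read 7.71, 9.97, 6.63 and 7.84 in OIL 204, OIL 206, TAM 204 and TAM 206 and 10.71 to 12.41 in F3 (median 12.06). It was lower in every 204/206 array (-3.79 ± 0.47 SE, adjusted p 0.00173). Trav13-5 was lower, with a difference of -0.64 ± 0.11 (SE, adjusted p 0.011). Variable segments are near copies of each other, and a probe set may read more than the named one. Cd8a and Ccr9 did not pass the test. Cd8a, the CD8 alpha chain, read 7.79, 9.27, 9.7 and 9.96 against 9.76 to 11.25 (difference -1.50 ± 0.48 SE, adjusted p 0.098), and Ccr9, the thymus and gut homing receptor, 6.1, 7.94, 6.97 and 8.87 against 8.36 to 10.12 (-1.69 ± 0.48 SE, adjusted p 0.0675).

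Notch1 read 12.36 to 12.64 in 204/206 and 12.27 to 12.88 in F3 (difference -0.09 ± 0.14 SE, adjusted p 0.786), and its target Hes1 8.15 to 8.65 and 8.37 to 8.77 (-0.07 ± 0.10 SE, adjusted p 0.746). Myc read 10.62 to 10.78 and 9.9 to 10.61, a difference of 0.53 ± 0.14 (SE) that missed the threshold at an adjusted p of 0.0571. Of 26 NOTCH receptors and targets tested, 1 was higher and 2 lower (11.5% in all, beside 6.56% of all genes), or 1 to 2 and 1 to 7 when each array was left out, with 7 lower without OIL F3 and 5 without TAM F3. Dtx1, an E3 ligase and NOTCH target, differed by -0.48 ± 0.10 (SE, adjusted p 0.0166), at 12.14 to 12.27 against 12.52 to 12.87; the call was lost without TAM 204 (0.0573). The other lower gene, Heyl, differed by -0.53 (limma adjusted p 0.0228), a call lost without any of 5 single arrays (0.0532 to 0.085). The higher one, Ccnd1, encodes the G1 cyclin D1 and read 9.17, 9.55, 9.07 and 8.95 against 7.37 to 8.32 (1.37 ± 0.21 SE, adjusted p 0.00588). Ccnd2, which encodes cyclin D2 and is not on the NOTCH list, read 7.79, 6.52, 9.15 and 6.38 against 9.31 to 10.55 (-2.17 ± 0.53 SE, adjusted p 0.0374). The Ccnd2 call was lost without TAM 206, TAM F3.1-4, TAM F3.2-10, OIL 204, OIL 206, OIL F3.2-3 or OIL F3.1-1 (0.0534 to 0.107).

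A JAK kinase and members of several immune gene families were lower in 204/206. The JAK family kinase Tyk2, which acts at interferon and interleukin 12 receptors, read 7.51, 7.3, 7.1 and 7.14 against 8.33 to 8.58 (median 8.39), a difference of -1.16 ± 0.11 (SE, adjusted p 0.000292). Of 35 cytokine receptor and JAK-STAT genes tested, 1 was higher and 2 lower (8.57% in all, beside 6.56% of all genes), or 0 to 2 and 1 to 3 when each array was left out. Of 39 genes of the GBP, IFI200, Schlafen, GIMAP and Ly6 families, 5 (12.8%, beside 2.89% of all genes) were lower and 0 higher (median -0.09), a count of 3 to 5 when each array was left out. Slfn1, a Schlafen gene of quiescent T cells, read 3.96, 4.12, 4.6 and 4.62 against 5.14 to 6.53 (-1.50 ± 0.15 SE, adjusted p 0.000424). Ifi209, an IFI200 gene, read 6.07, 5.57, 6.18 and 5.96 against 7.19 to 8.36 (-1.82 ± 0.24 SE, adjusted p 0.00251). By limma 0 of 25 interferon response genes and 0 of 31 activation and immediate early genes were called, beside 6.56% of all genes. At an unadjusted p under 0.05 were 6 and 4 of them, beside 21.5% of all genes. Tbx21 (T-bet) was higher, at 5.44 to 6.62 against 4.08 to 4.98 (1.37 ± 0.23 SE, adjusted p 0.00855).

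The called G2/M genes were higher in 204/206, by small amounts. Of 31 G2/M genes tested, 8 were higher and 0 lower, where 3.67% of all genes were higher. Their median was 0.26 log2 units, 28 of 31 lay above 0, and the 204/206 arrays lay above all F3 arrays for 15, beside 6.92% of all genes. The mitotic kinase Ttk read 8.73 to 8.85 in 204/206 and 7.98 to 8.49 in F3 (0.49 ± 0.10 SE, adjusted p 0.0182; 0.0592 without OIL 204). The median stayed at 0.25 to 0.31 when each array was left out, but the number called did not: it was 1 without OIL 206, TAM 204, OIL F3.1-1 or OIL F3.2-3, 2 without OIL 204, TAM 206 or TAM F3.2-10, 6 without TAM F3.1-4, 11 without TAM F3 and 16 without OIL F3. In OIL arrays alone the median was 0.27 and 0 were called. Of 30 G1/S and DNA replication genes, 1 was higher (0 to 6 when each array was left out), with a median of 0.15.

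The 4 genes called on the lysosome and autophagy list, which does not hold Laptm4b, were lower. Of 22 lysosome and autophagy genes tested, 4 were lower (18.2%, beside 2.89% of all genes) and 0 higher, with a median of -0.21. Hexa, a subunit of the lysosomal hexosaminidase, read 5.83, 5.67, 5.95 and 5.75 against 6.46 to 7.67 (median 7.38), a difference of -1.46 ± 0.25 (SE, adjusted p 0.00926). Lamp2, a lysosomal membrane protein, read 10.06, 10.01, 10.03 and 10.02 against 10.48 to 11.76 (-1.09 ± 0.25 SE, adjusted p 0.0287), and its call was lost without OIL 204, OIL 206, OIL F3.1-1 or OIL F3.2-3 (0.0652 to 0.0908). The list's count was 1 without OIL F3.2-3, 2 without OIL 204, OIL 206 or OIL F3.1-1 and 6 without OIL F3. Cytoplasmic ribosomal proteins (1 of 42 called, median 0.06) and oxidative phosphorylation subunits (5 of 74, median 0.07) had shares called of 2.38% and 6.76%, beside 6.56% of all genes. The 204/206 arrays lay above all F3 arrays for 15 of the 42 ribosomal protein genes and below for 0, and 34 differences were above 0. For oxidative phosphorylation these counts were 9 above and 4 below. Of all genes 6.92% lay above and 4.57% below.

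**Figure D3:**
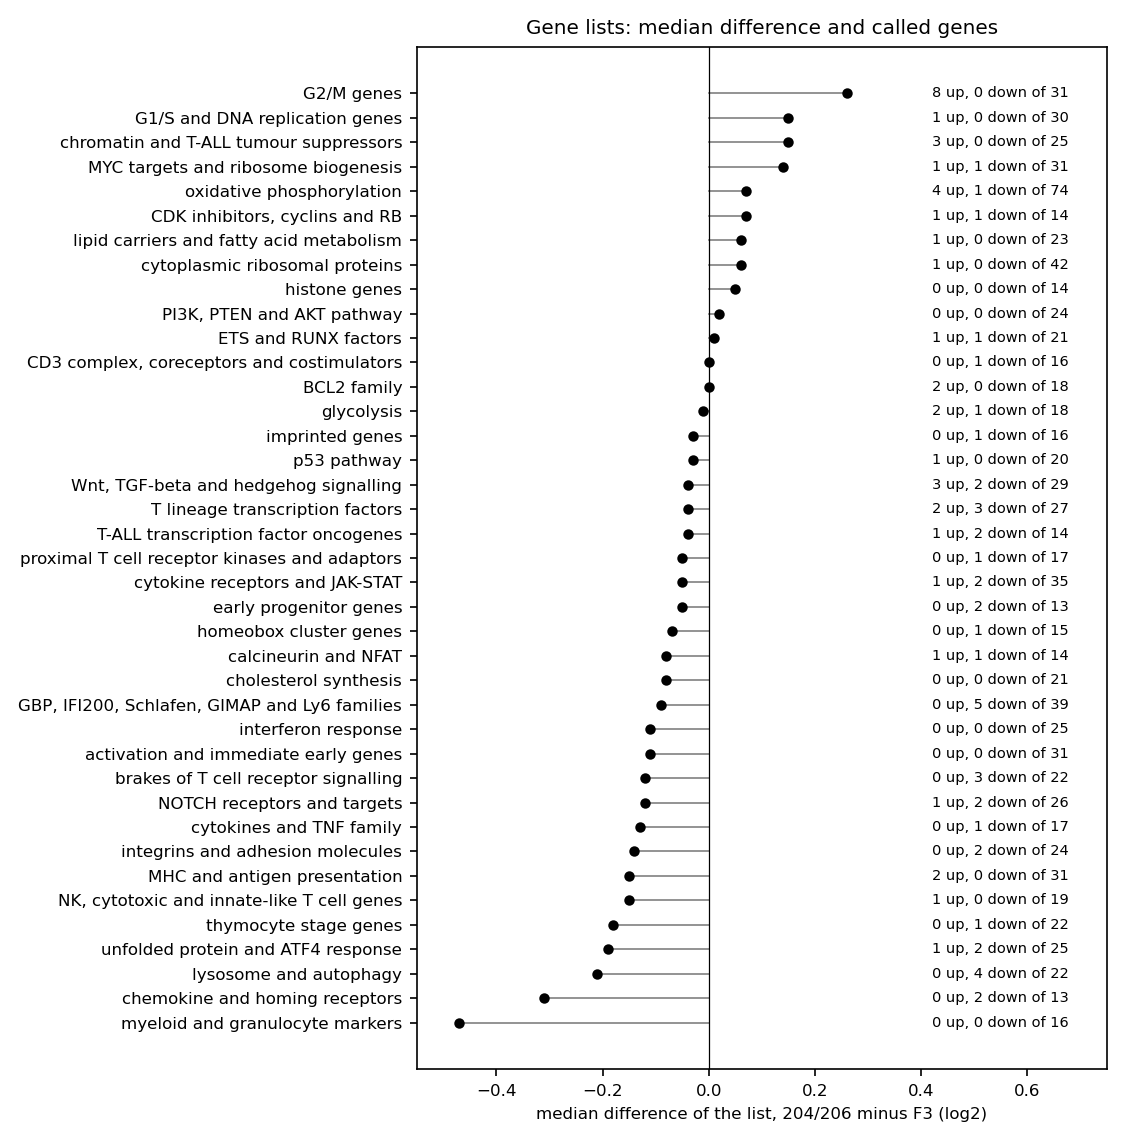
Median difference of 204/206 minus F3 on the log2 scale for each gene list with at least 10 genes tested, ordered by the median, with the number of genes called higher and lower at the right. G2/M genes have the highest median, 0.26, with 8 higher and 0 lower of 31, and myeloid and granulocyte markers the lowest, -0.47, with 0 called of 16.

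The 204 and 206 labels also differed from each other. With 1 term per label, 134 genes (1.05%) were called between them by limma, 100 (0.785%) higher in 204 and 34 (0.267%) lower. This fit counts the OIL and TAM arrays of a label as separate samples, though they are not independent. Its calls set 1 label against 1 label. In several of the largest differences 1 of the labels stood with F3. Fundc2, a mitochondrial outer membrane protein, read 5.72 and 5.06 in OIL 204 and TAM 204, and 11.1 and 10.98 in OIL 206 and TAM 206, with F3 at 10.73 to 10.92. The desmosomal cadherin Dsc2 read 3.58 and 3.23 in 204, 10.65 and 10.68 in 206, and 6.9 to 10.39 in F3, so that 204 was the low label. The oligopeptide transporter Slc15a2 read 9.56 and 9.77 in 204, 4.85 and 5.01 in 206 and 8.91 to 9.28 in F3, so that here 206 was.

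Other genes read higher in a single label than in all other arrays. Tceal8, of an X-linked elongation factor-like family, read 9.66 and 9.4 in OIL 204 and TAM 204 and 3.54 to 5.43 in the other 8 arrays. Monoamine oxidase A (Maoa) read 8.87 and 9.19 in OIL 206 and TAM 206 and 4.39 to 4.85 in the other 8 arrays. Bex1, a small X-linked adaptor, read 10.43 and 11.39 in 204 and 2.77 to 7.41 elsewhere, with TAM F3.2-10 at 7.41 the highest of these and TAM 206 at 5.17 the next. The Bex1 difference of 6.43 ± 0.90 (SE) was not called without OIL 204 (adjusted p 0.188), OIL 206 (0.173), TAM 204 (0.163) or TAM 206 (0.11). The cell cycle inhibitor gene Cdkn2a fell under the filter on dim genes and was not tested; it read 6.42 and 6.62 in 206 and 3.19 to 4.46 in all other arrays. The count of 134 was 53 to 89 when any array of 204 or 206 was left out, and 235 without OIL F3.2-3 or TAM F3.2-10.

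**Figure D4:**
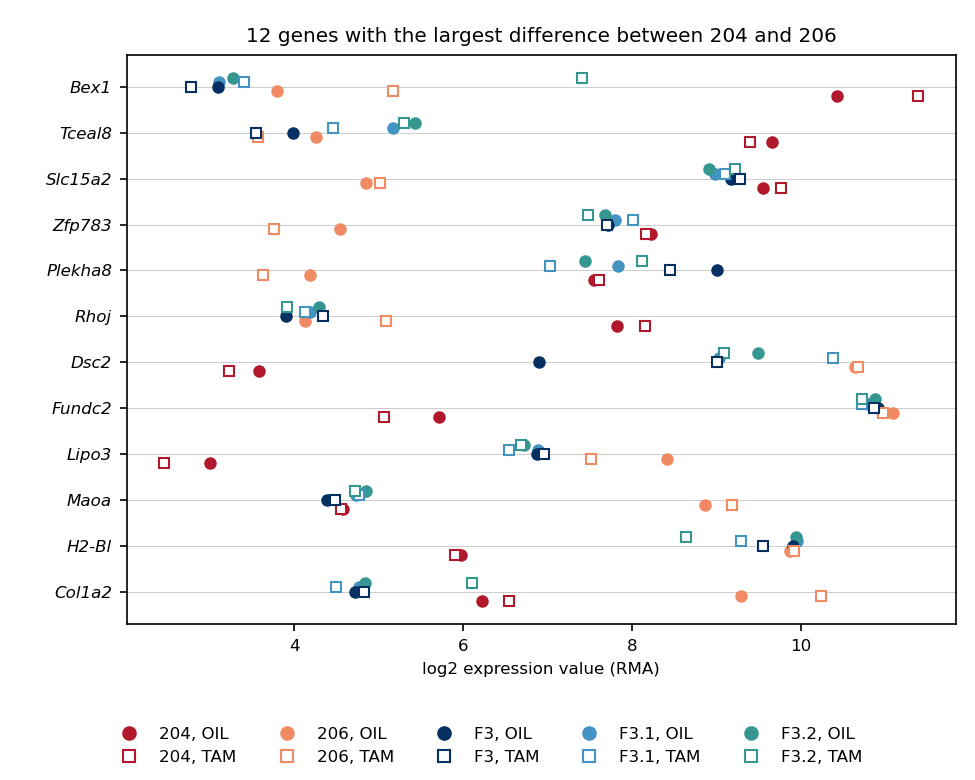
Log2 expression value of each of the 10 arrays for the 6 genes called with the largest difference above and the 6 below for 204 minus 206. Colours give the label, filled circles OIL and open squares TAM. The OIL and TAM points of 204 lie together and apart from those of 206, and F3 joins 206 for Fundc2 (10.73 to 10.92) and 204 for Slc15a2 (8.91 to 9.28).

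Within F3, the labels were compared by the same fit, which counts OIL and TAM arrays of a label as separate samples. The label F3 differed from F3.1 in 77 genes (0.605%) and from F3.2 in 250 (1.96%). F3.1 and F3.2 differed in 0 genes by limma, with 473 (3.71%) at an unadjusted p under 0.05. The highest Pearson correlation over tested genes, 0.996, was that of OIL F3.2-3 with OIL F3.1-1, above OIL and TAM of any 1 label (0.973 to 0.992). With these 2 arrays averaged into 1 sample, 354 genes were called between the label groups. Taking 2 log2 units of distance to all other arrays as the limit, 9 genes set 204 apart, 7 set 206 apart, 1 set the label F3 apart and none F3.1 or F3.2. The gene for the label F3 was Pdgfrb, a growth factor receptor, at 6.77 and 7.63 in OIL F3 and TAM F3 and 10.11 to 11.73 in the other 8 arrays.

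Chromosome medians lay near 0. The median difference of 19 autosomes and the X chromosome ran from -0.03 (chromosome 19) to 0.02 (chromosome 12), and the same medians for 204 alone from -0.04 to 0.02 and for 206 alone from -0.01 to 0.03. Running medians were taken over 12264 overlapping windows of 21 neighbouring genes, and most lay between -0.09 and 0.1. The lowest was -0.32, around Gimap3 on chromosome 6, with 7 of 21 genes called, the most in any window. The highest was 0.3, on chromosome 9 near Alg9, with 5 called. Of all genes 6.56% were called, and both windows are the extremes of all those taken. Ahi1, a ciliary protein gene next to Myb, read 9.62, 10.31, 10.15 and 10.86 against 7.41 to 8.16, higher by 2.53 ± 0.17 (SE, adjusted p 2.94e-05), while Myb itself read 12.29 to 12.34 against 12.32 to 12.79 (-0.26 ± 0.11 SE, adjusted p 0.214). This pair was chosen after its values were seen.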

How the data were processed

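Total RNA of the sorted cells was amplified and hybridised to 10 arrays, 1 for each sample. The deposited log2 values came from RMA (version not given in the sources used here), per the submitters' processing notes. They ran from 1.74 to 14.02, with array medians of 5.07 to 5.13. The number of arrays limits the precision. Of 45101 probe sets, 34945 with 1 usable symbol were kept, 932 had several symbols and 9211 none listed; 34741 matched RefSeq by Entrez ID. Each gene took its probe set of highest mean, and the dimmest 30% of genes were left out (limit 4.59). limma 3.58.1 in R 4.3.3 (data.table, version 1.17.8) fitted label group and treatment, with the label as random block (within-label correlation 0.282, 7 residual degrees of freedom). Benjamini-Hochberg adjustment ran over 12735 genes. OIL and TAM arrays carry the same labels, which pairs them; labels are nested in the groups compared. The code was tested on simulated data.

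Members, lists and tests were chosen with earlier results of these data known. Named genes were the 15 called genes furthest in each direction without overlap, 6 each way for 204 against 206, up to 4 called members per direction of each list, called genes of the chromosomes with extreme medians, and fixed genes. A few others were named after their values were seen: Pdgfrb, S100a8, Elane, Mpo, Siglech, Itgax, Ahi1 and Myb. Alternatives were other blocks, filters, probe set rules, scalings and left-out labels or arrays.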

Additional observations from a re-analysis of the deposited data

Results flagged for a closer look

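Among 272 sets of values of a named gene within 1 label group, 20 held an array far from the others by Dixon's criterion, and chance gives about 1 in 20. TAM F3.2-10 was that array 9 times. It read higher than the other F3 arrays for Zfp503 (7.27, next 4.68), Col1a2 (6.11, next 4.84), Scd1 (6.64, next 5.33) and Notch3 (10.84, next 10.09). It read lower for Ddx43 (7, next 7.89), Dlx1 (6.41, next 7.5), S100a10 (7.2, next 9.15), Cyp39a1 (7.17, next 8.24) and Tifa (6.49, next 7.76).

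TAM F3.1-4 stood apart from the F3 arrays for Asns (9.62, next 8.13), Ccnd2 (10.55, next 9.68), Rcan1 (5.84, next 6.33) and Rag1 (10.83, next 11.55). OIL F3.1-1 did so for Dsc3 (3, next 2.85) and OIL F3.2-3 for Cyria (5.45, next 4.94). Among the 204/206 arrays, OIL 206 stood apart for Zfp503 (7.34, next 9.07), Tspan6 (8.41, next 8.9) and Bid (9.65, next 9.39), OIL 204 for Mxd4 (9.38, next 8.99) and TAM 204 for Cenpf (9.81, next 9.69).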

How the results depend on the processing

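The 835 calls between 204/206 and F3 became 1507 with no replicate block and 2336 with the replicate block as a fixed label term, which counts OIL and TAM arrays of a label as separate samples; both hold all 835. They became 331 with label means, 354 with OIL F3.1-1 and OIL F3.2-3 averaged, 1498 with array weights, 238 at an adjusted p under 0.01 and 254 over 1 log2 unit. Without label 204 they were 183, without 206 422, without F3 2407, without F3.1 465 and without F3.2 401, and without single arrays 401 to 1472. Filters, scalings and probe set rules gave 622 to 892. Median centring gave 554 higher and 338 lower, quantile normalization 408 and 418, and the cause was not tested. The count was 77 to 819 without single arrays in OIL and 22 to 90 in TAM, where 4 groups on 10 arrays gave 294. For 204 against 206 it was 53 to 235, or 362 with their 4 arrays alone. Averaging probe sets gave 420 for F3 minus F3.1 and 492 for F3 minus F3.2. The interaction gave 0 to 2 without single arrays. Leaving out single arrays for 204 against 206, the interaction and the gene lists, other settings for the F3 labels, merging F3.1 with F3.2 (619 calls) and the running medians were chosen after seeing the data.

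Of 108 named genes called, 104 kept their direction and 24 their call in every setting that tested them, 28 to 30 of 30. With the probe set of largest interquartile range Il17ra turned to 0.08, Atp5g2 to -0.42, Pfkp to 0.3 and Smad3 to 0.39, and with averaged probe sets Atp5g2 to -0.01.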
